A study of Rattus norvegicus with 30 samples.

Results

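The livers of rats whose dietary protein came wholly from tofu (T20) were compared directly with those of rats whose protein came in equal parts from tofu and casein (T10). Each difference comes from the 10 arrays titled for these diets, 5 animals each. Its SE, interval and p come from a fit of all 30 arrays of the study, with a spread shared by 6 diets. The other diets were casein, casein with isoflavones, soy protein, and soy protein with isoflavones. T20 supplied 200 g/kg of protein as freeze-dried tofu, and T10 supplied 100 g/kg as freeze-dried tofu and 100 g/kg as casein. Casein livers (C, 200 g/kg of casein protein, 5 animals) are given beside them as the level without tofu. All were male Sprague-Dawley rats, an outbred laboratory strain, obtained at 4 weeks of age, adapted for 5 days to a standard chow and fed their diet for 14 days. Each array measured the total RNA of 1 liver, and the labels call the arrays of a diet biological replicates. Tofu protein, casein protein and whatever else tofu carries, isoflavones included, change together between T20 and T10 and cannot be told apart.

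Tofu is coagulated soy milk, rich in soy protein and oil. In the liver, dietary protein that exceeds the need for synthesis is broken down by transaminases, dehydratases and the urea cycle, and acetyl-CoA is turned into fatty acids and cholesterol by enzymes whose genes respond to the sterol regulatory element binding proteins. Among the routes by which cholesterol leaves the liver are bile acids, made through Cyp7a1, and free sterol export through the paired Abcg5 and Abcg8 transporter.

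No gene passed the test between T20 and T10, and what follows is a description of levels and of the precision with which they were compared. The genes of smallest p were *Hectd2* and *Gpt*, at 2.18-fold and 2.25-fold their T10 levels in T20. Most lipogenic and cholesterol-synthesis genes lay lower in T20 than in T10 by small amounts. The sterol exporter genes *Abcg5* and *Abcg8* and the monooxygenase *Fmo1* stood at nearly the same level in both, well above C. Differences are T20 minus T10 in log2 units of the deposited intensity, ± SE from limma with 5 livers per diet, and levels are log2 intensities.

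Of 18625 tested probe sets, 0 differed between T20 and T10 at a Benjamini-Hochberg adjusted p under 0.05 (0%). At an unadjusted p under 0.05 there were 1318 (7.08%), against 931 expected if none differed. Of these 822 lay higher in T20 (4.41%) and 496 lower (2.66%). The excess over 931 depended on single T20 arrays. The count was 998 (5.36%) without T20 replicate 1, 898 (4.82%) without T20 replicate 2 and 935 (5.02%) without both. It was 1935 (10.4%) without T20 replicate 5. Counted as genes, 819 of 10699 had such a p (7.65%), 540 higher (5.05%) and 279 lower (2.61%). This split followed the scaling of the arrays: it was 665 higher and 760 lower after quantile normalization, 414 and 921 with array medians set equal, and 1002 and 543 with equal median and spread. In 202 probe sets (1.08%) the T20 and T10 livers did not overlap, with T20 above in 129 (0.693%) and below in 73 (0.392%). The same fit called 839 probe sets for T20 against C (4.5%) and 60 for T10 against C (0.322%). By the labels, C replicate 3 shares the fitted gamma, sigma and mu of its normalization with an array of another diet, replicate 3 of casein with isoflavones (CI). With both of these arrays left out, the counts were 383 for T20 against C, 27 for T10 against C and 0 for T20 against T10. These counts share the C arrays, and the direct test of T20 against T10 called 0, so no single gene was shown to differ between the tofu amounts.

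The design bounded most differences closely. The 95% interval reached a median of 0.268 to either side of the estimate (1.2-fold), and the interval lay within a 2-fold change either way for 96.1% of probe sets. An estimated difference of 1 or more occurred in 73 probe sets, 59 higher in T20 and 14 lower. The middle of the distribution was narrow, with the 1st percentile at -0.42 and the 99th at 0.61. The scatter of all probe sets shows these values.

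**Figure D1:**
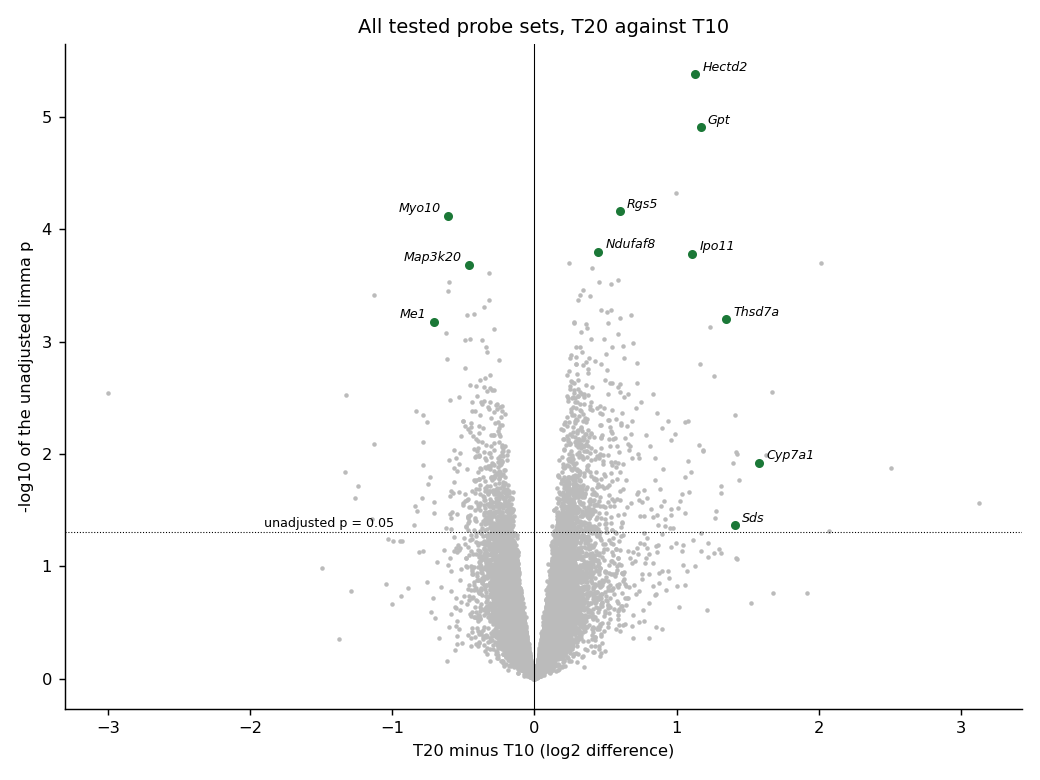
Each point is 1 tested probe set. The x axis is the log2 difference T20 minus T10, and the y axis is -log10 of the unadjusted limma p value. The dotted line marks the unadjusted threshold, and green points are named genes. *Hectd2* and *Gpt* stand highest, at differences of 1.13 and 1.17, and no probe set passed after adjustment.

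*Hectd2* encodes a ubiquitin ligase of the HECT class. It was 7.88, 7.83, 7.64, 8.33 and 8.30 in T20 livers, against 6.5, 7.29, 6.76, 6.62 and 7.18 in T10 livers. All 5 T20 livers lay above all 5 T10 livers. The difference was 1.13 ± 0.20 (2.18-fold, 95% interval 0.72 to 1.53), with a limma adjusted p of 0.0774. The C livers lay with T20, at a mean of 7.79 ± 0.19 (SD, n = 5), and the T10 mean of 6.87 was below the level of 7.388 used to leave out dim probe sets. *Hectd2* passed in the fit without T10 replicate 2 (limma adjusted p = 0.0382) and with the mean of the probe sets of each gene (limma adjusted p = 0.0404). It has 1 tested probe set, so averaging left its values as they were. The adjustment in that fit ran over 10699 genes instead of 18625 probe sets. Over all single arrays left out the adjusted p of *Hectd2* by limma ran up to 0.309.

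*Gpt* encodes alanine aminotransferase, which moves the amino group of alanine to 2-oxoglutarate. Levels were 12.41, 12.49, 12.25, 12.33 and 12.18 in T20 livers, against 10.43, 11.24, 11.42, 11.23 and 11.49 in T10 livers. The T20 livers lay within a narrow band above every T10 liver, and T10 replicate 1 stood below the other T10 livers. The difference was 1.17 ± 0.22 (2.25-fold, 95% interval 0.72 to 1.62), with a limma adjusted p of 0.115. C averaged 11.49 ± 0.48 (SD, n = 5), and *Gpt* passed for T20 against C (0.84, limma adjusted p = 0.0282) but not for T10 against C (-0.33, limma adjusted p = 0.651). Without C replicate 3 and CI replicate 3, *Gpt* did not pass for T20 against C (0.84, limma adjusted p = 0.0611).

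*Rgs5*, a regulator of G-protein signalling found in pericytes, was 8.80, 8.25, 8.69, 8.63 and 8.68 in T20 livers, against 7.88, 8.19, 8.23, 7.81 and 7.96 in T10 livers. The groups did not overlap, although T20 replicate 2 stood close to the highest T10 livers. The difference was 0.60 ± 0.13 (limma adjusted p = 0.282).

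**Figure D2:**
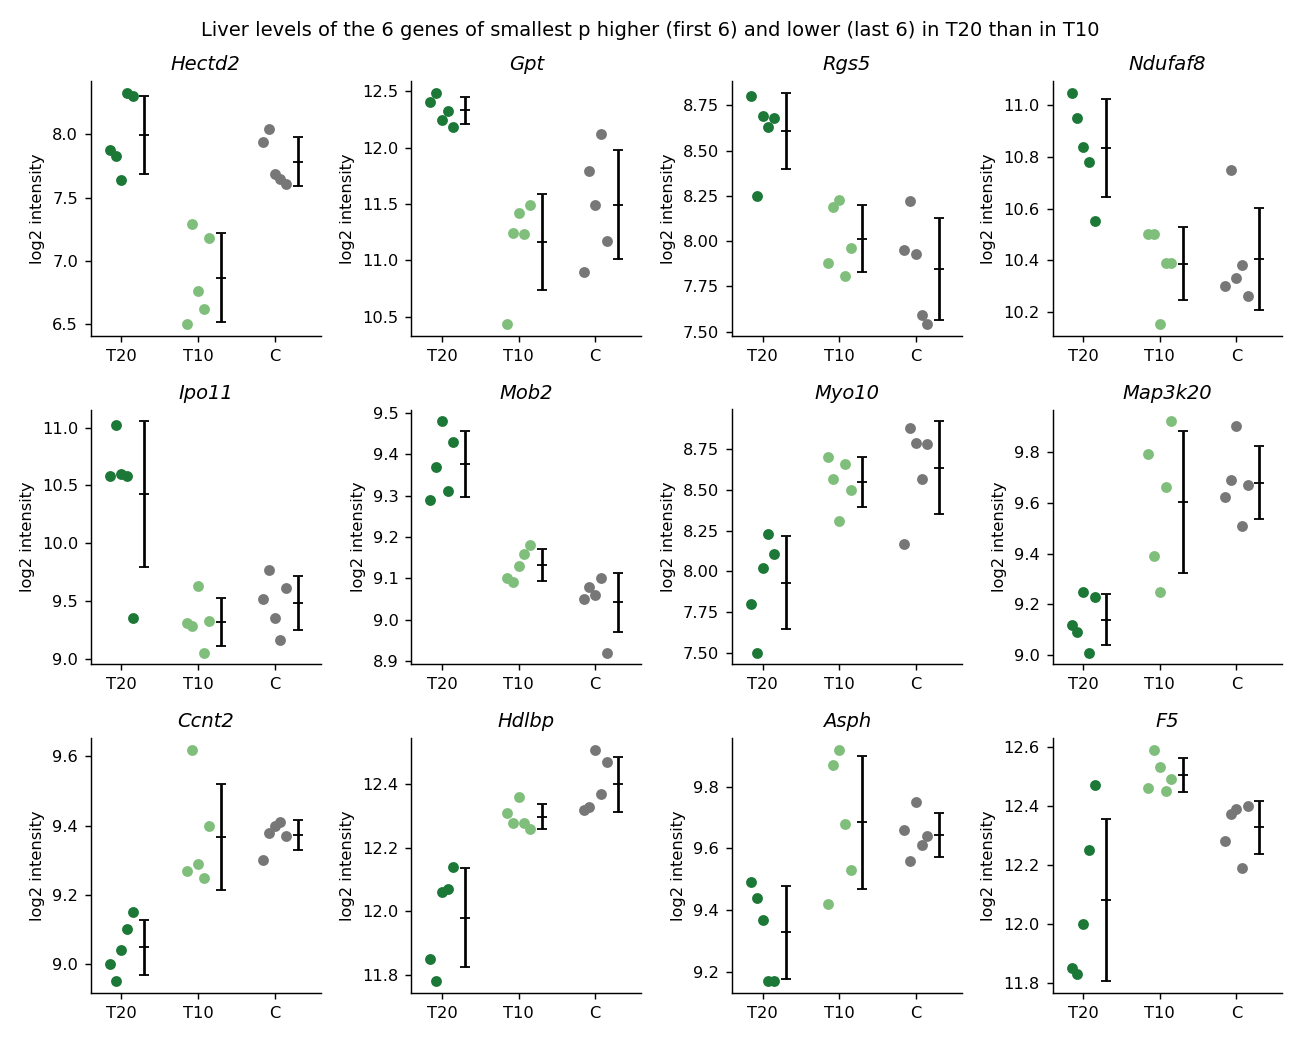
Log2 intensity (y axis) of the 6 genes of smallest unadjusted p that lay higher in T20 and the 6 that lay lower, 1 point per liver, with the mean and SD beside each diet (T20, T10, C; n = 5). *Hectd2*, *Gpt*, *Rgs5*, *Ndufaf8* and *Mob2* show no overlap between T20 and T10 livers.

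The 12 genes of smallest p that lay higher in T20 had differences between 0.24 and 1.17, and in 9 of them the groups did not overlap. Over all tested probe sets T20 lay wholly above T10 in 0.693%. Genes picked by a small p of the same comparison show this more often by their selection. After the 3 above came *Ndufaf8*, an assembly factor of respiratory complex I, at 0.45 ± 0.10, and the nuclear import receptor *Ipo11* at 1.11 ± 0.25. *Mob2*, a regulator of NDR kinases, followed at 0.24 ± 0.06, and *Ube2b*, a ubiquitin-conjugating enzyme, at 0.40 ± 0.09. *Ipo11* was 10.58, 11.02, 10.60, 10.58 and 9.35 in T20 livers, against 9.31, 9.28, 9.63, 9.05 and 9.33 in T10 livers. T20 replicate 5 alone fell among the T10 livers, and in the fit without it *Ipo11* was the 1 probe set that passed (1.38, limma adjusted p = 0.0326). The others were the somatostatin receptor *Sstr2* at 0.59 ± 0.14, *Tusc3*, a subunit of the oligosaccharyltransferase, at 0.54 ± 0.13, and *Fis1*, a fission factor of mitochondria and peroxisomes, at 0.34 ± 0.08. *Fuca2*, a fucosidase, and *Cd151*, a tetraspanin, lay higher by 0.32 ± 0.08 and 0.39 ± 0.10. From *Ndufaf8* to *Cd151* the limma adjusted p was 0.348. The C mean lay between T20 and T10 in 6 of the 12 and below both in 6. For *Ndufaf8*, *Ube2b*, *Tusc3* and *Cd151* T10 minus C was -0.02, -0.02, 0.01 and 0.00, so C stood at the T10 level.

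The 12 genes of smallest p that lay lower in T20 had differences between -0.71 and -0.29. In 3 of them the groups did not overlap, beside 0.392% of all probe sets with T20 wholly below, and these genes too were picked by p. *Myo10*, a myosin of filopodia, was 7.80, 7.50, 8.02, 8.23 and 8.11 in T20 livers, against 8.70, 8.57, 8.31, 8.66 and 8.50 in T10 livers. Every T20 liver lay below every T10 liver, and the difference was -0.61 ± 0.13 (limma adjusted p = 0.282). Next came the stress kinase *Map3k20* at -0.46 ± 0.11, *Ccnt2*, a cyclin of the elongation factor P-TEFb, at -0.32 ± 0.08, and the RNA-binding protein vigilin, *Hdlbp*, at -0.32 ± 0.08. The other tested probe sets of *Map3k20* and *Ccnt2* differed by -0.22 and -0.19. *Asph*, an aspartyl hydroxylase, lay at -0.36 ± 0.09, although its other tested probe set differed by 0.01. Coagulation factor V, *F5*, differed by -0.42 ± 0.11, and *Gm2a*, an activator of ganglioside breakdown, by -0.47 ± 0.12. *Enpp1*, a pyrophosphatase, *Vegfb*, a growth factor, and *Top3b*, a topoisomerase, differed by -0.29 ± 0.08, -0.45 ± 0.12 and -0.37 ± 0.10. The remaining genes, *Me1* and *Akr1d1*, are described with their pathways. The C mean lay between T20 and T10 in 6 of the 12 and above both in 6. For *Ccnt2*, counted as above both, T10 minus C was 0.00, so C stood at the T10 level.

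Fatty acid synthesis genes lay mostly lower in T20. Of the 20 tested genes of the fatty acid and NADPH list, 17 had a difference below 0, and the median was -0.17 beside 0.02 over all 10699 tested genes, of which 5806 (54.3%) lay above 0. None of the 20 passed, and 2 lay lower at an unadjusted p under 0.05, beside 2.61% of all genes. *Me1*, the cytosolic malic enzyme that supplies NADPH, was 11.28, 10.80, 11, 10.87 and 10.76 in T20 livers, against 11.58, 11.13, 11.67, 11.90 and 12.00 in T10 livers. Only T10 replicate 2 fell within the T20 range. The difference was -0.71 ± 0.19 (limma adjusted p = 0.353), its other tested probe set gave -0.83, and C stood higher again at 12.70 ± 0.26 (SD, n = 5). Against C, *Me1* fell in both diets, at -1.76 in T20 and -1.05 in T10 (limma adjusted p = 3.09e-06 and 0.0062).

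*Scd*, the desaturase that makes oleate, was 12.84, 13.75, 14.06, 14.22 and 13.08 in T20 livers, against 13.72, 13.40, 13.91, 14.86 and 15.01 in T10 livers. The ranges overlapped, with T10 replicates 4 and 5 above every T20 liver. The difference was -0.59 ± 0.28 (limma adjusted p = 0.695), and it was 0.03 without T10 replicates 3, 4 and 5, the arrays of raised GAPDH ratio described below. *Acly* (ATP citrate lyase) differed by -0.55 ± 0.29, *Acaca* (acetyl-CoA carboxylase) by -0.35 ± 0.18 and *Fasn* (fatty acid synthase) by -0.27 ± 0.47. For *Fasn* the 95% interval ran from -1.22 to 0.69, which includes a 2-fold lower level. *Srebf1*, the transcription factor of this pathway, differed by 0.29 ± 0.36 and by -0.01 without those T10 arrays.

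Among genes of triglyceride handling, *Pnpla3*, a lipid droplet protein, was 8.68, 8.76, 8.24, 8.12 and 6.78 in T20 livers, against 10.15, 8.61, 9.20, 8.20 and 9.08 in T10 livers. The T20 and T10 ranges overlapped, with T20 replicate 5 the lowest liver and T10 replicate 1 the highest. The difference was -0.93 ± 0.47 (95% interval -1.91 to 0.04, limma adjusted p = 0.721), while C stood at 12.08 ± 0.38 (SD, n = 5). The other tested probe sets of *Pnpla3* gave -1.24 and -0.39. *Plin3*, a droplet coat protein, lay higher in T20 at 0.37 ± 0.13, and was below C in both diets. Its differences from C were -0.58 for T20 and -0.95 for T10 (limma adjusted p = 0.0103 and 0.000271). The list of triglyceride genes had a median of 0.03 over 21 tested genes, 12 of them above 0.

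**Figure D3:**
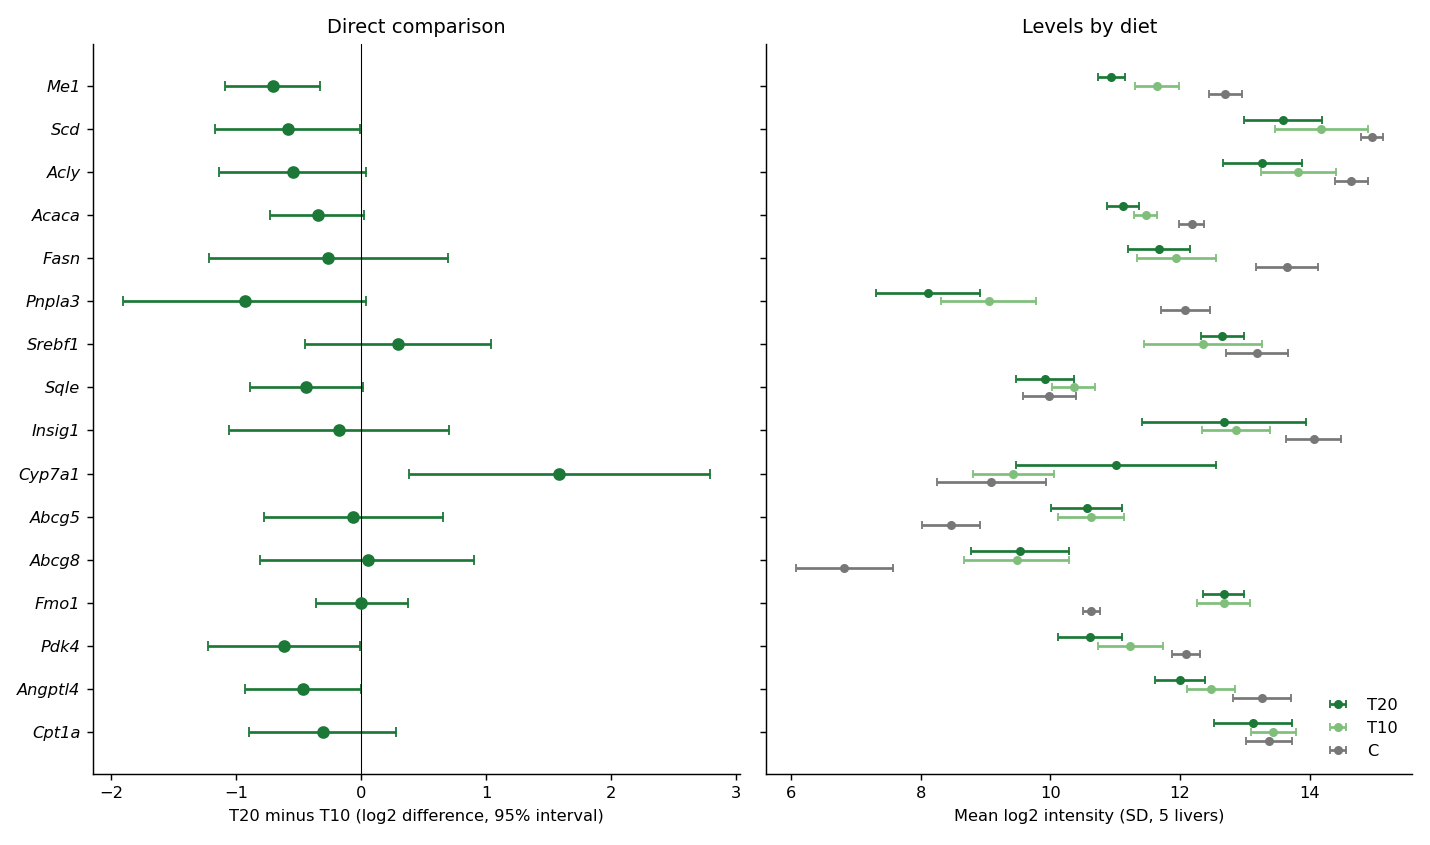
Left, T20 minus T10 (x axis, log2 difference) with its 95% interval for 16 lipid and related genes. Right, the mean log2 intensity ± SD of 5 livers (x axis) in T20, T10 and C. *Me1* differs by -0.71 with an interval below 0, whereas *Abcg5*, *Abcg8* and *Fmo1* differ by -0.07, 0.05 and 0.00 and lie above C in both tofu diets.

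Cholesterol synthesis had 18 tested genes, of which 17 lay below 0, with a median of -0.22 and a range of -0.46 to 0.40. Over all 10699 tested genes 4893 lay below 0, with a median of 0.02. None passed, and 1 lay higher and 1 lower at an unadjusted p under 0.05, beside 5.05% and 2.61% of all genes. The median was -0.06 without T10 replicate 1, -0.09 without T20 replicate 4 and -0.35 without T20 replicate 1. *Acat2*, the cytosolic thiolase at the head of the pathway, was 10.90, 10, 10.65, 9.79 and 9.87 in T20 livers, against 11.12, 10.48, 10.86, 10.41 and 10.64 in T10 livers. The difference was -0.46 ± 0.20 (limma adjusted p = 0.657). *Sqle* (squalene epoxidase) differed by -0.44 ± 0.22, *Fdps* (farnesyl diphosphate synthase) by -0.34 ± 0.20 and *Hsd17b7*, a late ketoreductase, by -0.30 ± 0.17. The exception was *Ggps1*, which makes geranylgeranyl diphosphate for protein prenylation outside the sterol branch, at 0.40 ± 0.19 (0.14 by its other tested probe set). The sterol sensing and uptake list had a median of -0.16 over 11 genes, or -0.10 without T20 replicate 2, -0.10 without T10 replicate 1 and -0.07 with equal median and spread. *Insig1*, which retains the sterol sensor in the endoplasmic reticulum, differed by -0.18 ± 0.43.

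Since 17 of these 18 genes lay below 0, the 250 bases before the RefSeq start of each were searched on both strands for 5 motifs in the RefSeq promoter table (build GRCr8), which held 15 of the 18, *Ggps1* with its 1 CCAAT box among them. The CCAAT box (CCAAT, or ATTGG on the other strand), bound by the factor NF-Y, occurred in 12 of the 15 (80%), against 34% of 33469 promoters. Those 33469 are all entries of the promoter table and were not limited to the genes tested here. The box occurred in 58.8% of 17 fatty acid synthesis promoters and 57.1% of 28 amino acid catabolism promoters. The sterol regulatory element searched, TCACNCCAC, occurred in 0 of the 15 and in 0.974% of all promoters, and the other motifs, TGACGTCA, CACGTG and TTATGNAA, in 0, 1 and 0 of the 15. Only this form of the sterol regulatory element was searched, so elements of another sequence were not counted and may be present. Below are the windows of 3 members whose values are given above, with CCAAT boxes in capitals: *Hsd17b7* has 3, *Fdps* has 2 and *Acat2* has 0. A match is a string of letters and not a measured site. Whether matches go with the T20 minus T10 differences was not tested. The windows lie at chr13:84722755-84723004 on the minus strand for *Hsd17b7*, at chr2:176804817-176805066 on the minus strand for *Fdps* and at chr1:50100590-50100839 on the plus strand for *Acat2*.
Hsd17b7: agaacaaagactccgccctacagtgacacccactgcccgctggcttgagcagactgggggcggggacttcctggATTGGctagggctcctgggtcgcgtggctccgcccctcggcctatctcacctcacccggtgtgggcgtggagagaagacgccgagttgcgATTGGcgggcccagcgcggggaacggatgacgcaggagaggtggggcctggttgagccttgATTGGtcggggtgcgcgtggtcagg
Fdps: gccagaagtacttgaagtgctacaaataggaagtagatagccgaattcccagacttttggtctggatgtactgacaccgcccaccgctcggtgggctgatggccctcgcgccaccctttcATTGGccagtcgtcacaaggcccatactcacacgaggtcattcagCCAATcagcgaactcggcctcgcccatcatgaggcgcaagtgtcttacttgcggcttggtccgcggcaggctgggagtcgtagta
Acat2: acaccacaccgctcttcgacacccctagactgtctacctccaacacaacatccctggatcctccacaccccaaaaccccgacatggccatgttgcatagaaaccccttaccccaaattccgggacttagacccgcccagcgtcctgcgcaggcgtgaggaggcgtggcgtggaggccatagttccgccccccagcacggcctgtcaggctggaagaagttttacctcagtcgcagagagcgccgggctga

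Sterol export genes stood alike in both tofu diets. *Abcg5* was 10.46, 9.68, 10.74, 10.75 and 11.16 in T20 livers, against 11.43, 10.14, 10.22, 10.71 and 10.62 in T10 livers. *Abcg8* was 9.72, 8.23, 9.69, 9.73 and 10.27 in T20 livers, against 10.77, 8.74, 8.84, 9.59 and 9.47 in T10 livers. Both genes were lowest in replicate 2 of each diet, and the ranges overlapped widely. The differences were -0.07 ± 0.35 (95% interval -0.78 to 0.65) and 0.05 ± 0.42 (-0.81 to 0.90), intervals that include changes of more than 1.5-fold in either direction. *Fmo1*, a flavin monooxygenase, was bounded more closely at 0.00 ± 0.18 (-0.36 to 0.37), with means of 12.67 ± 0.32 in T20, 12.67 ± 0.41 in T10 and 10.63 ± 0.13 in C (SD, n = 5). *Mttp*, which loads lipid onto apolipoprotein B, differed by -0.25 ± 0.08 (limma adjusted p = 0.481).

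In bile acid synthesis, *Cyp7a1*, the rate-limiting enzyme, was 13.27, 10.96, 10.45, 9.02 and 11.36 in T20 livers, against 9.12, 9.60, 10.36, 8.69 and 9.39 in T10 livers. T20 livers spread more widely than T10 livers (SD 1.54 and 0.62), and T20 replicate 4 lay below 4 of the T10 livers. The difference was 1.58 ± 0.59 (2.99-fold, 95% interval 0.38 to 2.79, limma adjusted p = 0.55), and 0.84 without T20 replicates 1 and 2. *Akr1d1*, the 5-beta-reductase of the same pathway, was 14.05, 13.32, 13.06, 13.50 and 14.18 in T20 livers, against 14.55, 13.94, 14.24, 14.43 and 14.08 in T10 livers. It differed by -0.62 ± 0.17 (limma adjusted p = 0.371), while its other tested probe set gave -0.22. *Nr1h4*, the bile acid receptor FXR, differed by -0.29 ± 0.13. The median of the 21 tested genes was -0.01, with 10 above 0.

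In fatty acid oxidation and PPAR-alpha targets, 18 of 30 tested genes lay below 0, with a median of -0.04. *Pdk4*, which restrains pyruvate oxidation, differed by -0.62 ± 0.30 (-0.14 by its other tested probe set) and *Angptl4*, an inhibitor of lipoprotein lipase, by -0.47 ± 0.23. Their C means of 12.09 and 13.26 lay above the T20 means of 10.61 and 12.00 and the T10 means of 11.23 and 12.47. The peroxisomal enzyme *Ehhadh* differed by 0.35 ± 0.16, and *Cpt1a*, the gate of mitochondrial oxidation, by -0.31 ± 0.29. In glucose metabolism *Pklr* (liver pyruvate kinase) differed by -0.35 ± 0.14 and *Gckr* (glucokinase regulator) by -0.16 ± 0.08. The adjusted p by limma was 0.636 or more for each of these genes.

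Amino acid catabolism lay towards the higher side in T20. Of 35 tested genes 24 had a difference above 0, the median was 0.10, and 5 lay higher and 0 lower at an unadjusted p under 0.05, beside 5.05% of all genes higher; none passed. The 5 were *Gpt*, *Agxt*, *Sds*, *Hpd* and *Gcdh*. *Sds* (serine dehydratase, which turns serine into pyruvate) was 12.88, 11.37, 10.33, 12.14 and 12.39 in T20 livers, against 8.80, 10.06, 10.20, 10.85 and 12.18 in T10 livers. Its spread within each diet covered several fold, and the difference was 1.41 ± 0.66 (limma adjusted p = 0.695). *Agxt* (alanine-glyoxylate aminotransferase) differed by 0.41 ± 0.13, *Hpd*, of tyrosine breakdown, by 0.16 ± 0.07, and *Gcdh*, of lysine breakdown, by 0.15 ± 0.07. *Oat* (ornithine aminotransferase) differed by 0.31 ± 0.23. The urea cycle had 6 of 8 genes above 0, beside 54.3% of all genes, with a median of 0.10. That median was 0.02 without T20 replicate 5, 0.03 without T10 replicate 3 and 0.04 without T10 replicate 1, beside 0.02 over all genes, and 0.05 after quantile normalization. *Mat2a*, a methionine adenosyltransferase, was 10.38, 11.07, 10.57, 10.97 and 10.10 in T20 livers, against 10.10, 10.13, 10.35, 9.72 and 9.78 in T10 livers. It differed by 0.60 ± 0.18 (limma adjusted p = 0.46).

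**Figure D4:**
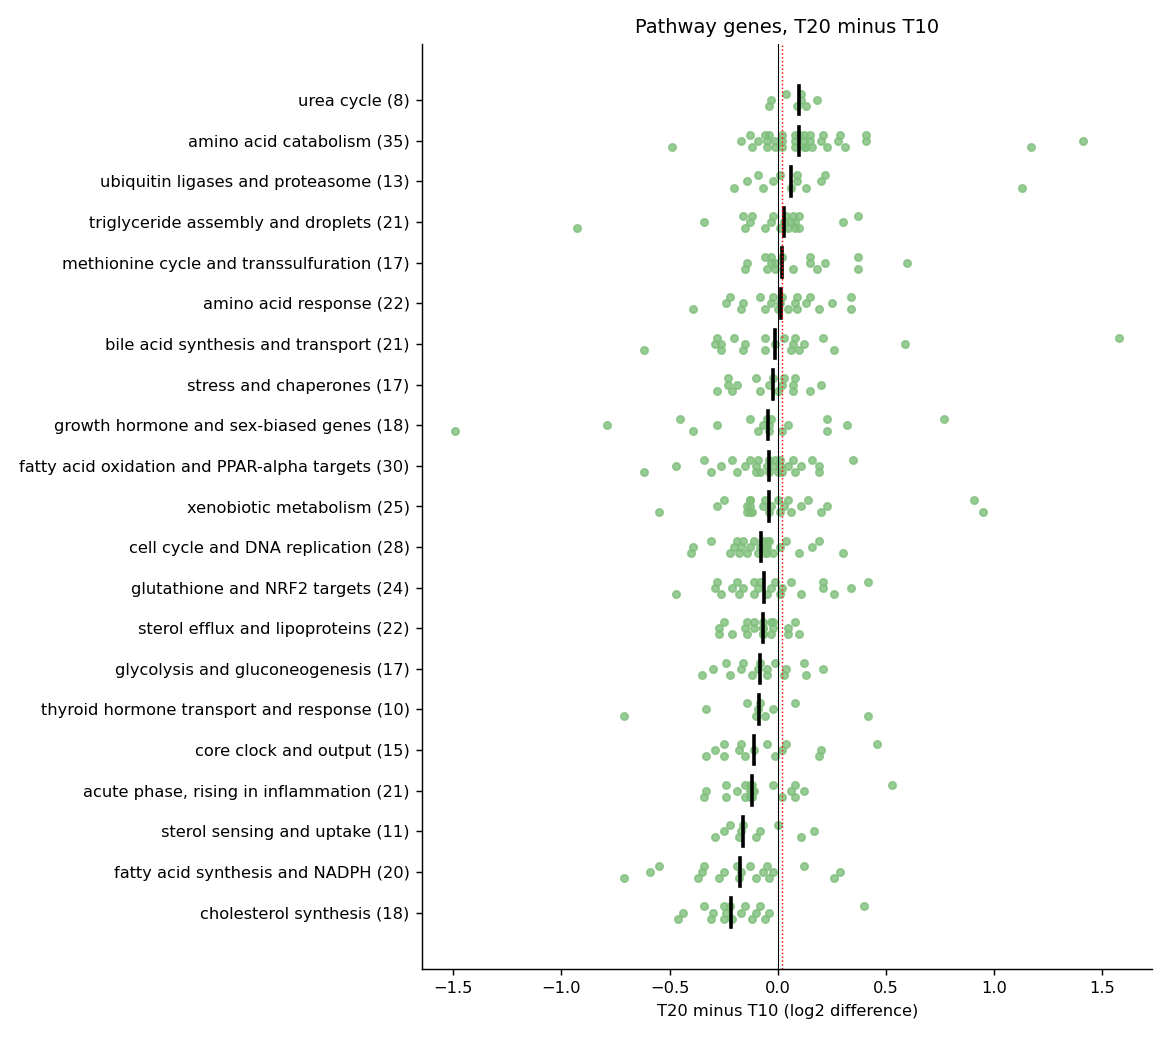
T20 minus T10 (x axis, log2 difference) of every tested gene of 21 pathway lists, with the number tested in brackets; 1 point per gene, bars mark list medians and the dotted line marks the median of all tested genes, 0.02. The list medians run between -0.22 for cholesterol synthesis and 0.10 for amino acid catabolism and the urea cycle.

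Other metabolic lists had medians between -0.12 and 0.06 with both directions among their members. *Sult1c2*, a sulfotransferase, differed by 0.91 ± 0.39, and *Cyp2c7*, a cytochrome of retinoid and drug metabolism, by -0.28 ± 0.11. The glutathione transferases *Gstm1* and *Gstt1* differed by -0.29 ± 0.10 and -0.47 ± 0.18. *Nupr1*, a stress-responsive chromatin protein, differed by -0.39 ± 0.17, the ubiquitin ligase *Nedd4* by -0.20 ± 0.07 and the prolactin receptor *Prlr* by -0.79 ± 0.33. Other tested probe sets of *Nedd4* differed by -0.20 to 0.14, and that of *Prlr* by -0.94. *Orm1*, an acute phase glycoprotein, differed by 0.53 ± 0.16, whereas 15 of the 21 genes of its list lay below 0. The acute phase median of -0.12 became 0.07 with equal median and spread, and those of sterol efflux, fatty acid oxidation and bile acid genes also changed sign under that scaling. So did those of the xenobiotic, glutathione, growth hormone and stress lists. The triglyceride, methionine cycle and amino acid response medians of 0.03, 0.02 and 0.01 became -0.02, -0.02 and -0.03 with array medians set equal. The medians of cholesterol synthesis, fatty acid synthesis, sterol sensing, amino acid catabolism and the urea cycle kept their sign under the 3 scalings tried.

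The tissue was checked against its markers. *Alb* was 16.43 to 16.69 in T20 livers and 16.56 to 16.87 in T10 livers, and all 9 tested hepatocyte identity genes had differences at or below 0, with a median of -0.12 that became 0.09 with equal median and spread. The summed level of this list, as its mean, was 15.58 to 15.75 in T20 livers and 15.66 to 15.93 in T10 livers. The liver was measured whole, and in bulk RNA fewer cells of a type and less RNA per cell cannot be told apart. Of the stellate and smooth muscle list, which holds *Rgs5*, 9 of 14 genes lay below 0 with a median of -0.05, and its mean level was 9.66 to 9.83 in T20 livers and 9.74 to 9.90 in T10 livers. *Col1a1*, *Col1a2* and *Acta2*, markers of activated stellate cells, differed by -0.44 ± 0.19, -0.33 ± 0.16 and -0.24 ± 0.11, while the collagen *Col3a1*, the matrix protein gene *Dcn* and the intermediate filament gene *Des* differed by 0.01, 0.01 and 0.03. *Cd14*, a lipopolysaccharide co-receptor of macrophages, was 11.77, 11.27, 11.69, 11.57 and 11.74 in T20 livers, against 12.20, 11.82, 11.79, 12.59 and 12.07 in T10 livers, without overlap. It differed by -0.48 ± 0.21 (limma adjusted p = 0.648), whereas 7 of the 11 macrophage genes lay above 0. The endothelial receptor *Kdr* differed by -0.21 ± 0.09, with 5 of the 11 endothelial genes above 0 and a list median of 0.00. The T cell gene *Cd3g* differed by 0.61 ± 0.26, its T10 mean of 7.16 lying below the level of 7.388 used for dim probe sets. The lymphocyte list had 4 of 6 tested genes above 0 and a median of 0.06, and the leukocyte gene *Ptprc* differed by -0.22. The bile duct gene *Epcam* differed by 0.30 ± 0.14, and all 3 tested genes of its list lay above 0, with a median of 0.18. Of markers of pericentral and periportal hepatocytes, *Slc1a2*, a glutamate transporter, differed by 0.51 ± 0.23 and *Aldh1b1*, an aldehyde dehydrogenase, by 0.63 ± 0.19. *Slc1a2* differed by 0.26 without T20 replicate 1. The pericentral list had 5 of 11 genes below 0 and a median of 0.05, with *Cyp2e1*, a pericentral cytochrome, at -0.12, and the periportal list had 6 of 13 genes below 0 and a median of 0.00. None of these passed, and the part of cell composition in any difference was not tested.

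Some measures set arrays of these diets apart. For the GAPDH controls, the signal of the 3' probe set over that of the 5' probe set was 1.04, 1.06, 1.12, 1.23 and 1.13 in T20, against 0.97, 1.05, 1.58, 1.51 and 1.32 in T10. The last 3 T10 arrays exceeded all other arrays of the study, which lay between 0.97 and 1.25. The mean ratio was 1.11 ± 0.07 in T20 and 1.29 ± 0.27 in T10 (SD, n = 5; two-sided exact permutation test, p = 0.222, adjusted p = 0.278). That of beta-actin was 2.29 ± 0.39 in T20 and 2.48 ± 0.21 in T10 (exact permutation p = 0.278, adjusted p = 0.278), and the smallest p the design allows is 0.00794. The beta-actin ratio was 1.91 and 1.94 in T20 replicates 1 and 2, against 2.27 to 2.85 in the other arrays of both tofu diets. Low ratios also occurred in other diets, with 1.84 in CI replicate 2. Without T10 replicates 3, 4 and 5, *Hectd2* differed by 1.10, *Gpt* by 1.5 and *Me1* by -0.41.

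The clock output gene *Dbp* was 7.10, 7.19, 7.26, 9.15 and 12.06 in T20 livers, against 7.99, 7.07, 7.33, 9.65 and 10.97 in T10 livers. *Nr1d1*, a clock repressor, was 7.94, 7.18, 8.57, 10.50 and 11.61 in T20 livers, against 6.34, 8.13, 7.22, 10.72 and 11.09 in T10 livers. Replicates 4 and 5 of both diets were thus high for both genes, with several-fold spread inside each diet, while the diets differed by -0.05 ± 0.69 and 0.46 ± 0.95. In C livers *Nr1d1* was 5.93 and 6.66 in replicates 1 and 2, against 8.33, 8.95 and 9.19 in replicates 3 to 5. The hour at which each liver was taken is not stated in the labels. With the *Dbp* level as a covariate, an alternative chosen after seeing the data, 0 probe sets were called and 1505 had an unadjusted p under 0.05. Without replicates 4 and 5 of both diets, *Hectd2* differed by 0.93 and *Gpt* by 1.36, and 0 probe sets were called.

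**Figure D5:**
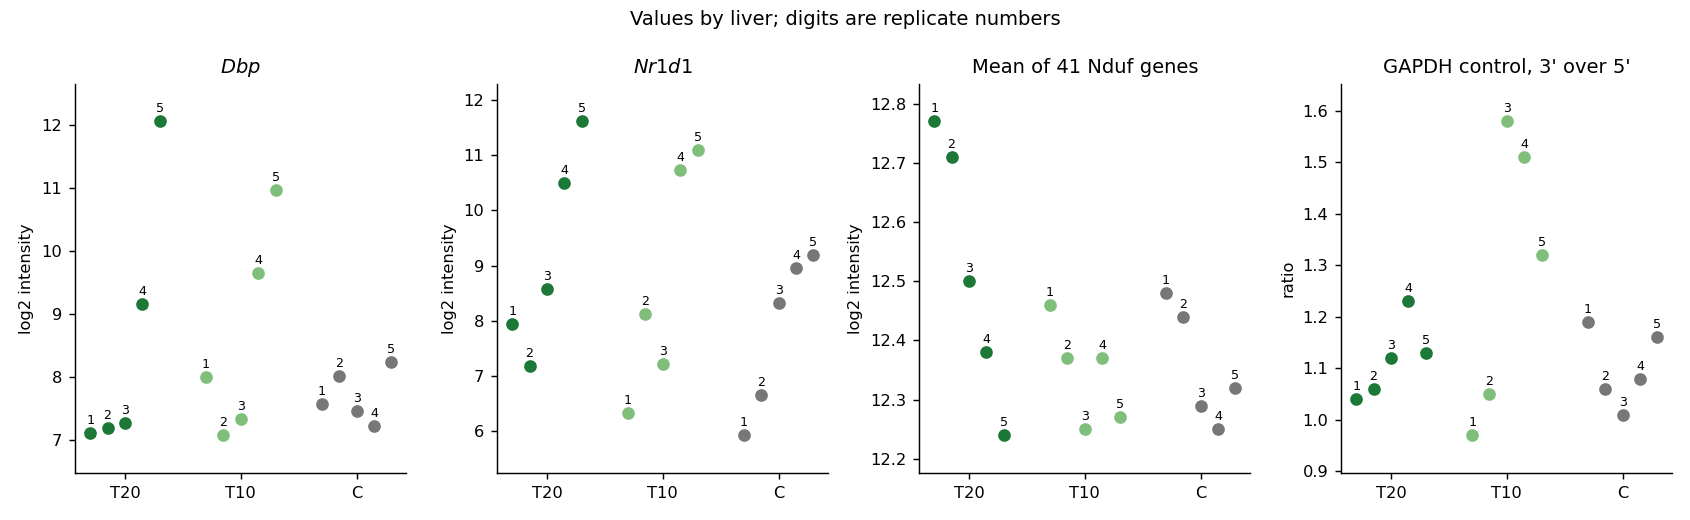
Values of each liver (y axes: log2 intensity in the first 3 panels, a ratio in the last) in T20, T10 and C, with replicate numbers beside the points. *Dbp* and *Nr1d1* are highest in replicates 4 and 5 of both tofu diets, the mean of 41 Nduf genes is highest in T20 replicates 1 and 2, at 12.77 and 12.71, and the GAPDH ratio is raised in T10 replicates 3, 4 and 5.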

How the data were processed

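Liver RNA of 30 rats was measured on 1-colour Affymetrix arrays. The authors deposited 1 linear intensity per probe set and array, normalized with the SuperNORM service per the labels; how its scale was set is not stated in the labels. Of 31099 probe sets, 57 controls were left out. Values below 16 were set to 16 before taking log2, and the 18625 probe sets with a mean above the 40th percentile (7.388, intensity 167.6) were tested. By the platform annotation 20832 probe sets carry 1 symbol, 436 carry several and 9831 carry none. A gene was represented by its brightest tested probe set, giving 10699 genes.

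All 30 arrays were fitted as 6 diet means with limma 3.58.1 (R 4.3.3; 24 residual degrees of freedom; trended variance; two-sided) and Benjamini-Hochberg adjustment over all tested probe sets at 0.05. The number of arrays limits the precision; array median intensities were 216.9 to 254.7. Same-numbered livers correlated at 0.01 to 0.35 in their deviations, not every one over the 0.1 required, so replicate numbers were not treated as pairs.

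The comparison and the 34 gene lists were chosen with earlier results of these data known. Of 599 list genes, 478 were tested. Named genes were the 12 of smallest p per direction, up to 2 members per list with an unadjusted p under 0.05, and a fixed set of lipid genes, of which 16 were tested and 4 were not analysed here. *Dbp*, *Nr1d1*, *Enpp2*, *Thsd7a*, *Fdps*, *Hsd17b7*, *Oat*, *Hpd*, *Gcdh*, *Nr1h4*, *Alb*, *Col1a2*, *Acta2*, *Col3a1*, *Dcn*, *Des*, *Ptprc* and *Cyp2e1* were named after their values were seen. Alternatives covered scaling, filters, floors, the variance model, the arrays fitted, array weights, the replicate block, covariates, probe set averaging, the threshold and arrays left out. Leaving out T20 replicates 1 and 2 together was not planned beforehand. Figures were drawn with matplotlib under Python.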

Additional observations from a re-analysis of the deposited data

Results flagged for a closer look

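A single array stood far from the other 4 of its diet in 12 of 158 groups examined, where chance gives about 1 in 20. In T20 these were *Ipo11* in replicate 5 (9.35, others 10.58 to 11.02), *Fuca2* in replicate 5 (10.03, others 10.23 to 10.28), *Gstt1* in replicate 4 (10.98, others 11.40 to 11.45), *Slc1a2* in replicate 1 (9.68, others 8.37 to 8.52), *Abcg8* in replicate 2 (8.23, others 9.69 to 10.27), *Cpt1a* in replicate 5 (14.16, others 12.77 to 13.11) and *Thsd7a* in replicate 4 (11.14, others 10.64 to 10.75). In T10 they were *Gpt* in replicate 1 (10.43, others 11.23 to 11.49), *Top3b* in replicate 2 (9.41, others 9.58 to 9.65), *Orm1* in replicate 1 (13.58, others 14.29 to 14.55) and *Nr1h4* in replicate 2 (11.25, others 11.73 to 11.89). The beta-actin control ratio was 2.85 in T10 replicate 1 and 2.35 to 2.43 in the other T10 arrays.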

How the results depend on the processing

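The count of 0 called probe sets became 1 in 5 of the 30 settings tried: *Thsd7a* with only the T20 and T10 arrays, *Hectd2* with the mean of the probe sets of a gene, at an adjusted p under 0.1 and without T10 replicate 2, and *Ipo11* without T20 replicate 5. With single arrays left out the count called was 0 to 1, and the count at an unadjusted p under 0.05 was 898 (without T20 replicate 2) to 1935 (without T20 replicate 5). It was 816 of 10699 with the mean of the probe sets of a gene, where fewer features were tested, and 1029 without T10 replicates 3, 4 and 5. With the replicate block 0 were called and 1580 had an unadjusted p under 0.05; same-numbered livers correlated at 0.01 to 0.35 in their deviations, and 1 of 5 numbers matched itself best. With single arrays left out the log2 difference of the GAPDH ratio was -0.28 to -0.10 and that of beta-actin -0.21 to -0.07, with exact permutation p of 0.0714 or more.

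The difference of 9 genes changed sign in some settings. *Fmo1* became -0.06 after quantile normalization, -0.04 with arrays centred on their median and -0.10 with array weights, under which *Insig1* became 0.01. *Abcg8* became 0.00 (just below 0) with median centring, -0.02 with the GAPDH ratio as a covariate, and -0.23 both without T10 replicates 3, 4 and 5 and without replicates 4 and 5 of both diets. *Abcg5* became 0.26 without T20 replicates 1 and 2. *Alb* became 0.00 after quantile normalization and 0.08 with equal median and spread. *Insig1* became 0.28 without replicates 4 and 5 of both diets. *Scd* became 0.03 and *Srebf1* -0.01 without T10 replicates 3, 4 and 5, and *Srebf1* -0.04 without replicates 4 and 5 of both diets. *Dbp* became 0.37 with the GAPDH covariate, 1.02 without T10 replicates 3, 4 and 5 and 0.89 without T20 replicates 1 and 2. With single arrays left out the ranges were -0.22 to 0.15 for *Abcg5*, -0.14 to 0.37 for *Abcg8*, -0.14 to 0.13 for *Fmo1*, -0.54 to 0.12 for *Insig1*, -0.93 to 0.54 for *Dbp* and -0.15 to 1.06 for *Nr1d1*. The cause was not tested.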

Other observations

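Genes of several protein complexes lay slightly higher in T20, a pattern noticed in these data and not tested, while 54.3% of all tested genes lay above 0. Of 41 Nduf genes, which encode subunits and assembly factors of respiratory complex I, 38 had a difference above 0, with a median of 0.15 beside 0.02 for all tested genes. Their mean level was 12.77, 12.71, 12.50, 12.38 and 12.24 in T20 livers, against 12.46, 12.37, 12.25, 12.37 and 12.27 in T10 livers. T20 replicates 1 and 2 were the highest of the 10, and without them the median was 0.03. Of 73 mitochondrial ribosome genes 60 lay above 0, with a median of 0.14 (0.04 without T20 replicates 1 and 2), and the ATP synthase genes had a median of 0.16 (0.00 without them). Of 37 proteasome genes 30 lay above 0 (median 0.09, and -0.01 without those arrays), of 21 cytochrome c oxidase genes 18 (0.09 and 0.02) and of 44 cytosolic ribosome genes 30 (0.07 and -0.08). Translation initiation factors had 24 of 48 genes above 0 and a median of 0.00. Zinc finger genes had a median of -0.01. Over 4 equal classes of gene length the median difference was 0.063 in the shortest, then 0.031, 0.005 and -0.039 in the longest (Spearman rho -0.24 over 10665 genes, which are not independent replicates). Without T20 replicates 1 and 2 these medians were 0.059, 0.035, 0.013 and -0.007.

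*Thsd7a*, a thrombospondin-domain protein, was 10.75, 10.64, 10.68, 11.14 and 10.72 in T20 livers, against 9.39, 9.53, 9.25, 9.59 and 9.41 in T10 livers. The tofu diets did not overlap, with a difference of 1.35 ± 0.35 (limma adjusted p = 0.353), whereas C livers spanned 9.30 to 11.34. This SE uses the spread of all 6 diets, while the SD was 0.20 in T20 and 0.13 in T10. *Thsd7a* passed with only the T20 and T10 arrays fitted (limma adjusted p = 0.000891), and its limma adjusted p was 0.186 to 0.804 with single arrays left out. *Enpp2*, which encodes autotaxin, averaged 12.63 ± 0.31 in T20, 12.05 ± 0.21 in T10 and 11.49 ± 0.25 in C (SD, n = 5), with no overlap between T20 and T10 livers and a difference of 0.58 ± 0.16 (limma adjusted p = 0.371).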
